A study of Mus musculus with 2 samples.

Results

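Upper hair follicle keratinocytes were studied in mouse skin, in 1 WT and 1 Utx-cKO section. The cells were chosen by their own measured transcripts. A cell was a member if it had at least 20 transcripts of the panel, at least 2 of Krt79 and at least 4 of Krt79, Krt17, Gata6 and Cldn4 together. It also had to have fewer than 5 transcripts of the sebocyte genes Fa2h, Cers4, Elovl3, Elovl4 and Cidea and fewer than 5 of the granular layer genes Lce1m, Hal, Flg2, Alox12b and Sdr9c7. This selection on measured values gave 3818 cells of 70658 with at least 20 transcripts and of 92679 segmented in all. Of these, 1283 lay in the WT section and 2535 in the Utx-cKO section.

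The upper hair follicle is the funnel, or infundibulum, through which the hair shaft leaves the skin, together with the canal that carries sebum from the sebaceous gland into it. Its inner cells are marked by keratin 79 and renew separately from the surface epidermis. They line an opening where microbes, sebum and shed cornified material meet, and they are known for antimicrobial peptides and for contact with resident T cells. Gata6 is a transcription factor of the sebaceous duct, keratin 17 a keratin of the follicle and of stressed epidermis, and Cldn4 a tight junction protein.

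Both groups, titled WT control and Utx-cKO, were B6/129 females under normal development, with no treatment. In the Utx-cKO skin, Kdm6a, which encodes the H3K27 demethylase UTX, was deleted by Cre under the Krt14 promoter, so basal keratinocytes and their descendants, the follicle and sebaceous gland included, are the cells in which recombination is driven. The assay was Xenium, which images single transcripts in place, here on 5 µm sections of fixed whole skin with 480 genes. Ages and the number of animals per section were not given in the labels, and each section held 4 separate strips of tissue of unknown origin.

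With 1 section per genotype no test between genotypes was possible, and no p-value is given. Levels are in CPM, counts summed over member cells and scaled to their panel total. Intervals are exact 95% intervals that cover counting error only, and values by strip are a description, since strips are not known to be animals. A gene was called higher or lower when its level differed by at least 1.5-fold, a rule of size. Members held a median of 76 transcripts in WT and 58 in Utx-cKO, and 109385 and 170557 transcripts in sum. The 20 negative control probes gave 16 and 47 counts over all members, with at most 7 and 16 for 1 probe, and every gene called different exceeded the highest control probe in both sections. Only 2 cell identifiers occurred in both sections, and no member had one of them.

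The marker genes of the rule are given as a description. They cannot check the label, since all 4 were counted to choose the members. Members had a median of 4 Krt79 transcripts in both sections and a highest value of 20 in WT and 25 in Utx-cKO. Krt17 was present in 93.9% and 96.5% of members, Cldn4 in 23.1% and 27.9%, and Gata6 in 12.1% and 10.0%. All 4 genes together were seen in 42 WT and 79 Utx-cKO cells. In fibroblasts, which should lack these genes and are no members by definition, each was present in at most 1.97% of cells. Their median depths were 82 and 63 transcripts. Most members were thus chosen by keratins, and few showed the duct factor Gata6 at this depth. Of the cells that met the marker part of the rule, 440 of 1820 in WT and 839 of 3484 in Utx-cKO were left out for sebocyte transcripts, and 101 and 115 for granular ones, with 4 and 5 cells among both. At the edge of the rule, 313 and 638 members had just 2 Krt79 transcripts, while 242 and 485 cells failed only by having 1.

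Where the members lay was not used to choose them, and it is given by distance. They formed short columns spaced along each strip, between the granular layer at the surface and the sebocytes. Of the members, 96.4% (95.2 to 97.4) in WT and 96.8% (96.0 to 97.4) in Utx-cKO had another member within 20 µm. Linking members within that distance gave 88 groups of at least 5 cells in WT and 150 in Utx-cKO, with medians of 11 and 12 cells. The median distance to the nearest sebocyte was 40.7 µm (38.0 to 43.1) in WT and 34.6 µm (33.1 to 36.9) in Utx-cKO, against 71.0 and 64.1 µm for other keratinocytes. Other keratinocytes are those that are no members and hold at least 4 transcripts of Krt5, Krt15, Itga6, Col17a1, Trp63, Dst, Krt1, Krt77 and Sbsn. Members had larger nuclei than they did, with median areas of 22.4 against 19.2 µm² in WT and 22.3 against 19.5 µm² in Utx-cKO, while the median area of the whole segmented cell was 59.2 against 64.9 and 62.2 against 65.4 µm². In Utx-cKO strip 3 it went the other way, with 64.1 against 60.8 µm².

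**Figure D1:**
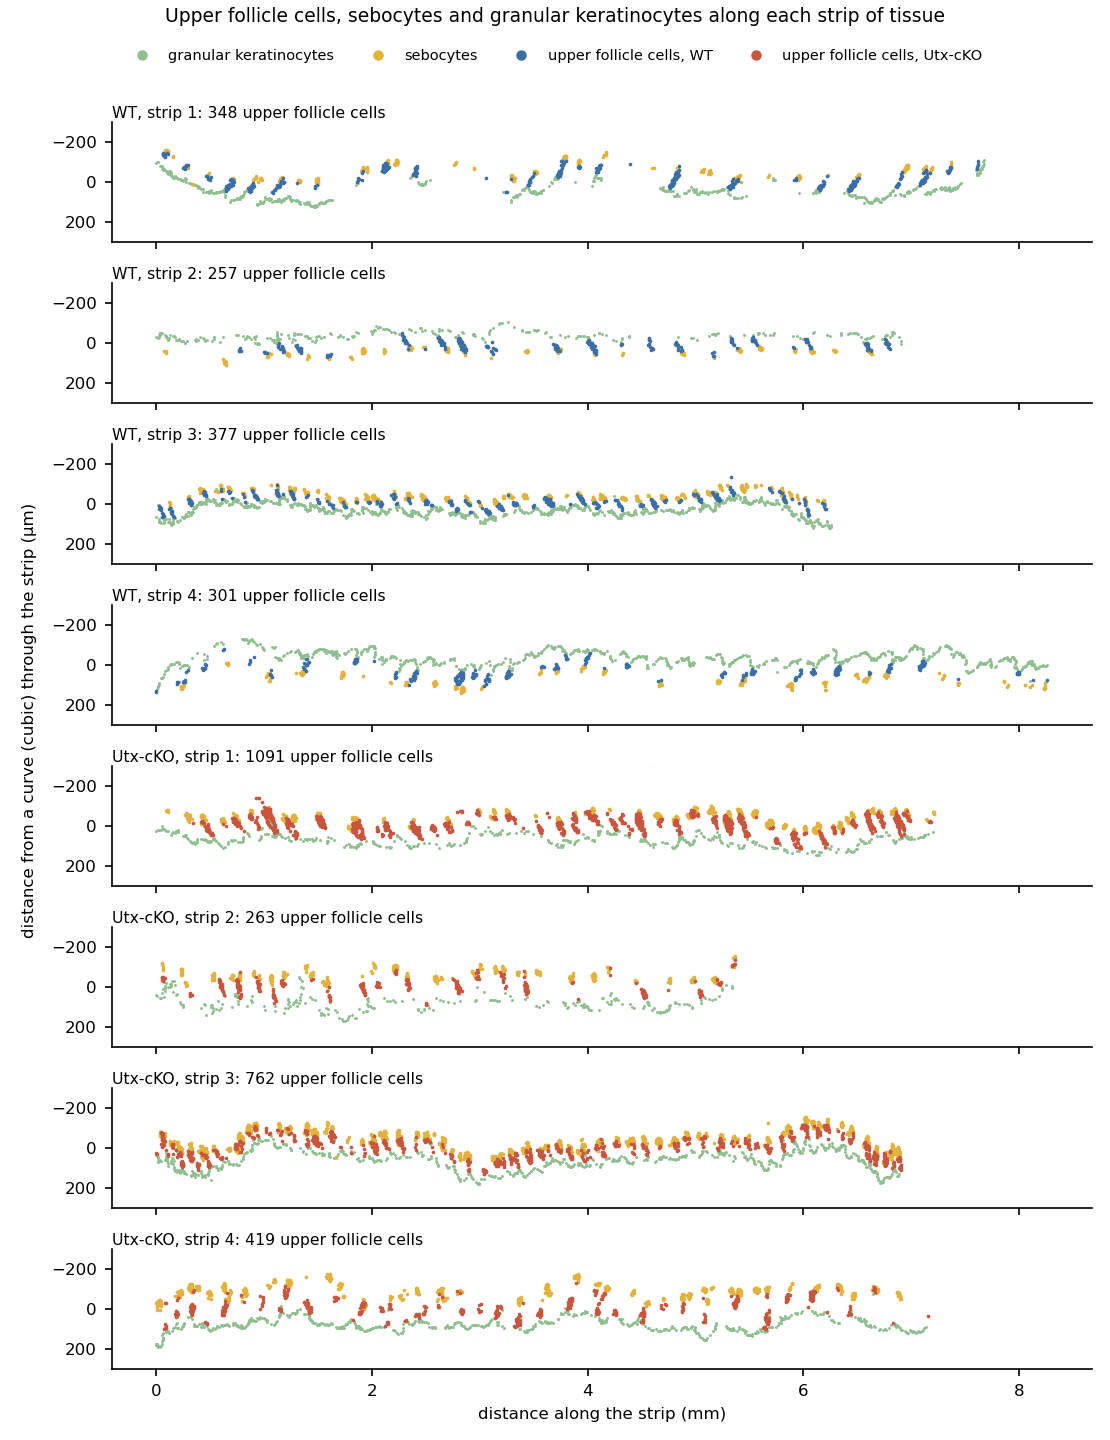
Positions of upper follicle cells (blue in WT, red in Utx-cKO), sebocytes (yellow) and granular keratinocytes (green) in the 4 strips of each section, with the distance along the strip in mm and the distance from a cubic curve through the strip in µm (the vertical scale is stretched). The members stand in columns between the green surface line and the yellow glands, and Utx-cKO strip 1 holds 1091 of the 2535 Utx-cKO members.

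Members made up a larger share of the Utx-cKO section. Of cells with at least 20 transcripts they were 3.86% (3.65 to 4.07) in WT and 6.78% (6.53 to 7.04) in Utx-cKO. They were 8.70% (8.25 to 9.17) and 15.02% (14.5 to 15.6) of all keratinocytes, members included, in the same order. By strip, the share of keratinocytes was 9.93%, 10.0%, 8.12% and 7.49% in WT. It was 21.8%, 9.01%, 13.0% and 13.5% in Utx-cKO. The 2 sets of strips overlapped, since Utx-cKO strip 2 lay below WT strips 1 and 2, and Utx-cKO strip 1 alone held 43.0% of the Utx-cKO members. Without that strip the ratio of the shares of all cells, Utx-cKO over WT, was 1.34 instead of 1.76. The rule counts transcripts of Krt79 and Krt17, so a share of cells and a level of these genes cannot be told apart here. Sebocytes, also chosen by marker counts, numbered 918 of 33263 cells with at least 20 transcripts in WT and 2044 of 37395 in Utx-cKO. They too were more numerous in Utx-cKO, and whether the larger share is particular to members was not tested.

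The distance from members to granular cells differed as well. Members lay a median of 24.3 µm (22.4 to 26.3) from the nearest granular keratinocyte in WT and 45.3 µm (42.8 to 47.5) in Utx-cKO. By strip the medians were 38.2, 28.9, 17.0 and 22.7 µm in WT and 71.7, 50.2, 25.6 and 25.5 µm in Utx-cKO, so the strips overlapped and Utx-cKO strips 1 and 2 were the far ones. Within 25 µm of a granular cell lay 51.3% of WT and 31.0% of Utx-cKO members. Farther than 50 µm lay 24.3% and 46.4%, with 71.2% of the members of Utx-cKO strip 1 among those. Without Utx-cKO strip 1 the Utx-cKO median was 29.1 µm. Basal keratinocytes, also chosen by marker counts, lay a median of 55.0 µm from a granular cell in WT and 77.2 µm in Utx-cKO. By strip they lay at 73.2, 63.3, 39.1 and 69.3 µm in WT and 103.6, 101.7, 58.5 and 18.3 µm in Utx-cKO. Whether the difference is particular to members was not tested. Granular cells, themselves chosen by marker counts, numbered 2339 of 33263 cells with at least 20 transcripts in WT and 1945 of 37395 in Utx-cKO. Other keratinocytes held a median of 74 transcripts in WT and 61 in Utx-cKO. The part of the smaller number of granular cells, or of depth, in these distances was not tested. Because the mix of distances differed between the sections, genes are given below in the above distance classes too, which were chosen after the data were seen. Words of position used for them, such as near the surface, inward or deepest, stand for distance to a granular cell only.

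Among the genes higher in members than in other keratinocytes were genes of retinoid handling, of the cornified envelope, of antimicrobial defence and of cell adhesion. Of 171 genes with at least 100 counts in the members of each section, the rule's own genes left out, 31 (18.1%) were at least 1.5 times higher in members than in other keratinocytes in both sections, and 29 (17%) were at least 1.5 times lower in both. These are a description, because members were picked by transcripts of the same cells. Sprr1a, a precursor protein of the cornified envelope, stood first, with 8347 CPM in WT members against 794 in other WT keratinocytes and 9158 against 1020 in Utx-cKO. Its level was 1294 and 2151 CPM in granular cells and 848 and 939 CPM in sebocytes, so the upper follicle exceeded each of these sets in both sections.

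Genes of retinoid handling were among them. Rbp2, a protein that binds retinol inside cells, measured 2185 CPM in WT members against 452 in other keratinocytes, and 1741 against 313 in Utx-cKO. Crabp2, which carries retinoic acid to its receptor, was 2.25-fold higher in the section with the smaller ratio, but its level in WT sebocytes, 6590 CPM, exceeded the 4928 CPM of WT members.

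The remaining genes have varied roles. Defb1, a beta-defensin, was 2.63-fold higher in the section with the smaller ratio, at 4507 and 3747 CPM, and granular cells had 3425 and 2778 CPM. Epcam and Cxadr, adhesion proteins of epithelia, were 2.80-fold and 2.62-fold higher by the same measure. Ahr, the receptor for aryl hydrocarbons, was 2.15-fold higher, Ovol1, a transcription factor of epidermal differentiation, 1.85-fold, and Ly6d, a surface protein of differentiating epithelia, 2.67-fold. Acsl4, an enzyme that activates arachidonic acid, was 2.98-fold higher than in other keratinocytes, while WT sebocytes had 8108 CPM against 5558 in WT members. Sostdc1, an inhibitor of BMP and Wnt signals, followed with 2.28-fold, Ptgr1, a reductase of prostaglandins and aldehydes, with 2.07-fold, Tm4sf1 with 1.99-fold and Liph, a lipase that makes a lysophospholipid needed in the follicle, with 1.88-fold.

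Of the lists compared with other keratinocytes in both sections, the sebaceous and lipid synthesis list had 1 gene higher and 4 lower of 7, the spinous list 1 and 3 of 9, the cornified list 3 and 2 of 8, the basal list 0 and 2 of 8, and the junction list 1 and 1 of 4. Over the 171 genes 18.1% were higher and 17% lower. Some of these differences are built in. Members were filtered on sebocyte and granular genes, and other keratinocytes were chosen on Krt5, Krt1, Col17a1 and the other genes of their own rule, which raises those genes in the set compared against. Krt1, the suprabasal keratin of interfollicular skin, measured 951 CPM in WT members against 8659 in other keratinocytes, and is given here as a level only. Among members themselves, Krt1 was at 1675 CPM in WT within 25 µm of a granular cell and at 108 CPM, from 3 counts, beyond 50 µm.

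**Figure D2:**
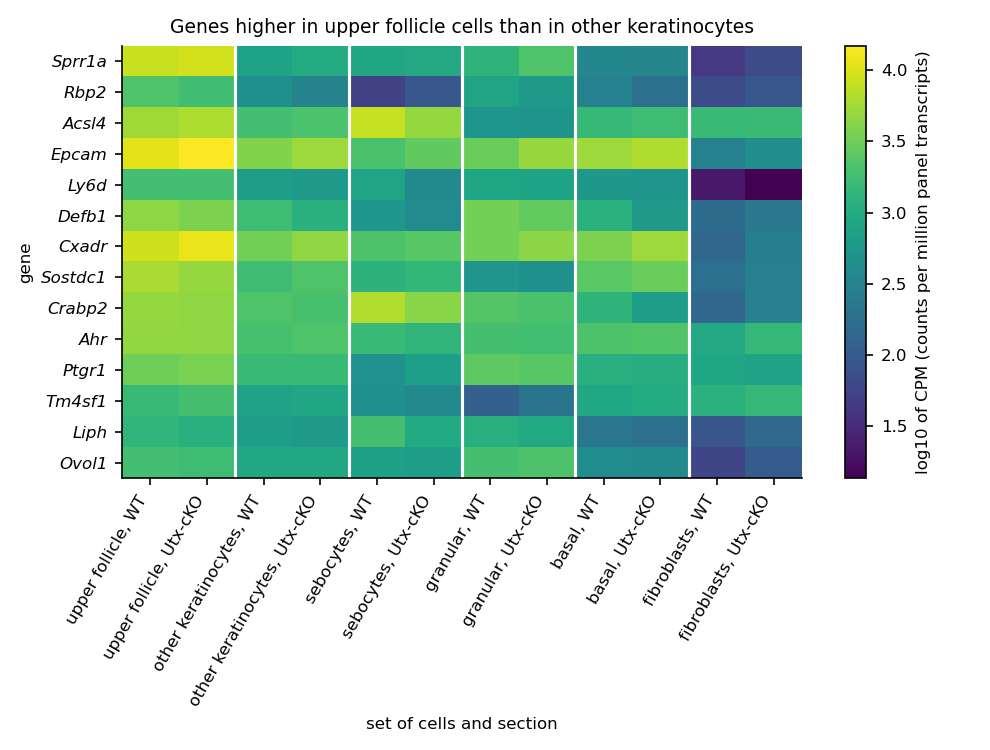
Levels, as log10 of CPM, of 14 genes among those with the highest smaller ratio of upper follicle cells over other keratinocytes, in 6 sets of cells of each section. Sprr1a and Rbp2 are brightest in the upper follicle columns, while Acsl4 and Crabp2 are also bright in sebocytes.

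The deleted gene was examined first between genotypes. Kdm6a measured 3218 CPM in WT members and 2081 CPM in those of Utx-cKO. The log2 ratio was -0.63 (-0.85 to -0.41). Of fibroblasts, in which Krt14-Cre is not driven, 19.3% in WT and 14.8% in Utx-cKO held a transcript, beside 22.2% and 12.1% of members. By strip it was 2440, 2181, 4340 and 2960 CPM in WT and 1559, 2147, 2755 and 1666 CPM in Utx-cKO. The strips overlapped. Utx-cKO strip 3 lay inside the WT range and the other Utx-cKO strips under it, strip 2 only just. WT strip 3 was the high one, and without it the log2 ratio was -0.28. A probe outside the deleted part of a gene can still be read after recombination, and the labels do not say where the probes lie, so the remaining signal does not check the deletion. In other keratinocytes the log2 ratio was -0.24. By distance, members within 25 µm of a granular cell had 3332 CPM in WT and 2894 in Utx-cKO, and their log2 ratio was -0.20 (-0.51 to 0.10). Members at 25 to 50 µm had -1.07 (-1.59 to -0.56) and those farther away -0.78 (-1.18 to -0.36). Leaving out any 1 strip kept these deeper ratios between -1.33 and -0.51. The ratio near the surface went from -0.70 without Utx-cKO strip 3 to 0.22 without WT strip 3, so its size moved with the strips. It lay above both deeper ratios in each of these runs. Without Utx-cKO strip 3 the deeper ratios were -1.33 and -0.87, and without WT strip 3 they were -0.81 and -0.51. Whether the classes differ was not tested.

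Among other genes of chromatin, the methyltransferase gene Kmt2a was also lower, from 2459 to 1583 CPM, a log2 ratio of -0.64 (-0.88 to -0.39), and -0.45 without WT strip 1. Kdm6b, the related demethylase, had 0.26, and Kmt2c, Kmt2d and Ezh2 lay between -0.15 and 0.07. Of 7 genes of the list compared, 2 were called lower, Kdm6a and Kmt2a, and none higher, with a median of -0.01. Over all genes compared between genotypes, 8.96% were called lower and 14.2% higher. With totals that leave out the genes of the rule, Kdm6a was at -0.56 and Kmt2a at -0.57, both short of 1.5-fold.

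Between genotypes 268 genes were compared, those with at least 100 counts over both sections and not among the 14 genes of the rule; 198 of the 480 were too low. Of these 268, 38 (14.2%) were at least 1.5 times higher in Utx-cKO members and 24 (8.96%) at least 1.5 times lower, with a median log2 ratio of 0.01. Direction held when each strip was left out in turn for 35 of the 38 and 21 of the 24. The ratio stayed past 1.5-fold without each strip for 18 and 8 of them, so for the others 1 strip decided the call; the strip is named below for genes in the text. In other keratinocytes 20 of the same genes were higher and 17 lower, of which 14 and 4 were called the same way in members. All strips of Utx-cKO lay above all strips of WT for 4 genes (1.49%) and below them for 11 (4.1%). The 4 were Akr1c18, Gch1, Aim2 and Tpi1, all called higher.

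The highest ratios belonged to small proline-rich proteins of the cornified envelope, the pore-forming gasdermin Gsdmc, the epithelial transcription factor Elf3 and the G protein regulator Rgs4. Sprr2a1, Sprr2a2 and Sprr2a3 are neighbouring copies on chromosome 3, and their upstream sequences show how alike they are. The 300 bases around the start of Sprr2a1 (chr3:92215585-92215884) and Sprr2a2 (chr3:92250397-92250696), 250 before and 50 after, are identical in RefSeq's GRCm38.p6, plus strand. Those of Sprr2a3 (chr3:92285054-92285353) share a run of 272 bases with them, shifted by 28. They are printed 5′ to 3′ because the 3 genes had similar ratios; capitals mark the motif CAGGAA, an ETS-type core, searched on both strands.
Sprr2a1: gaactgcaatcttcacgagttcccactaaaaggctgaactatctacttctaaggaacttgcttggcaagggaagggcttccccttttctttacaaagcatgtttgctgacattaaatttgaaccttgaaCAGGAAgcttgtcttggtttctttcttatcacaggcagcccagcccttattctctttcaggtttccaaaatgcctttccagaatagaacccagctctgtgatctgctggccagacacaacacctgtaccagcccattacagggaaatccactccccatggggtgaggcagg
Sprr2a3: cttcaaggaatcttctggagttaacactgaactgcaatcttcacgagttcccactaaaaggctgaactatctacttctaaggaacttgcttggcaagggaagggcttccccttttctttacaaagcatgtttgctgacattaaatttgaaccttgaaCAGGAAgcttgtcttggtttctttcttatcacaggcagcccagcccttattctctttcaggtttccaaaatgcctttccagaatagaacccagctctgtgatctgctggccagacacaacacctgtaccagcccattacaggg
The motif occurred in 10037 of 32851 promoters of this length (30.6%), and TGANTCA, an AP-1 core that is its own reverse complement, occurred in 7.81% of them and in none of the 3. A match is a run of letters and no binding site. Because the transcripts of the 3 copies may cross-react with one another's probes, their values are uncertain as separate genes and are read here as 1 group.

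In the order of the strips, Sprr2a2 measured 1730, 1122, 695 and 1350 CPM in WT and 11616, 781, 1031 and 5538 CPM in Utx-cKO. Utx-cKO strips 1 and 4 stood far above every WT strip, while Utx-cKO strips 2 and 3 lay inside the WT range. Over the sections the levels were 1179 and 5816 CPM, a log2 ratio of 2.30 (2.04 to 2.58), which was 0.74 without Utx-cKO strip 1. Sprr2a1 had 1.87 (1.68 to 2.07) and Sprr2a3 2.30 (1.84 to 2.78), at 0.62 and 0.90 without that strip. The transcripts were concentrated in few groups of linked members, since the top 10% of Utx-cKO groups, ranked by their counts, held 82.6% of the Sprr2a2 counts, against 57.0% in WT.

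Gsdmc followed the same strips. Its WT strips measured 402, 872, 48.0 and 1039 CPM and its Utx-cKO strips 4088, 911, 477 and 4683 CPM. Strips 1 and 4 of Utx-cKO were again the high ones, and the other strips of Utx-cKO lay within the WT range. The section levels were 448 and 2504 CPM, a log2 ratio of 2.48 (2.05 to 2.94), which was 1.70 without Utx-cKO strip 1, and 1.76 in other keratinocytes. Among groups of at least 5 members, 28.4% in WT and 50.7% in Utx-cKO held a Gsdmc transcript. The share of cells with one was 3.27% in WT and 12.7% in Utx-cKO, and 1.01% and 5.36% after thinning each cell to 20 transcripts, with 0.29% and 0.28% in thinned fibroblasts.

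Rgs4 and Elf3 were less bound to strips 1 and 4. Rgs4 measured 556, 810, 144 and 1350 CPM in WT and 4881, 455, 2232 and 1576 CPM in Utx-cKO, so that strips 1, 3 and 4 of Utx-cKO lay above all WT strips. Its log2 ratio was 2.40 (2.02 to 2.80), and 1.66 without Utx-cKO strip 1. Elf3, which acts in the differentiation of epithelia, went from 128 to 745 CPM, a log2 ratio of 2.54 (1.74 to 3.45), and its Utx-cKO strips measured 1132, 65.1, 493 and 765 CPM with at most 192 CPM in WT. Elf3 was seen in 1.09% of WT and 4.54% of Utx-cKO members, so this ratio rests on few cells. It was 1.93 without Utx-cKO strip 1, and 0.52% and 0.94% of fibroblasts held a transcript.

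Whether these genes were read in the same cells was asked in Utx-cKO members thinned to 40 transcripts, a question chosen after the data were seen. Sprr2a2 was present in 35.1% (28.0 to 42.7) of the 171 cells with Gsdmc and in 12.1% (10.6 to 13.7) of the 1772 without. For single strips the cells were thinned in a separate draw, so their counts are no exact part of those above. Within strip 1 the shares were 40.7% (31.4 to 50.6) of 108 and 21.0% (18.0 to 24.2) of 695. Rgs4 was present in 32.4% (23.7 to 42.1) and 12.5% (10.1 to 15.2) of the same cells of strip 1. In strip 1, cells with Gsdmc thus held Sprr2a2 and Rgs4 more often than cells without it. In strip 4, the other strip high in Gsdmc, they did not stand apart, with Rgs4 in 5.00% (0.61 to 16.9) of 40 cells and 6.11% (3.38 to 10.04) of 229, and Sprr2a2 in 8 of the 40 cells (9.05% to 35.6%) and 14.8% (10.5 to 20.1) of the 229. For Akr1c18 the intervals overlapped, as it was present in 18.1% (12.7 to 24.7) of cells with Gsdmc and 19.7% (17.9 to 21.6) of those without. All these intervals count cells as independent, while the top 10% of Utx-cKO groups of linked members held 61.2% of the Gsdmc counts. Whether the genes share cells beyond sharing groups was not tested.

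**Figure D3:**
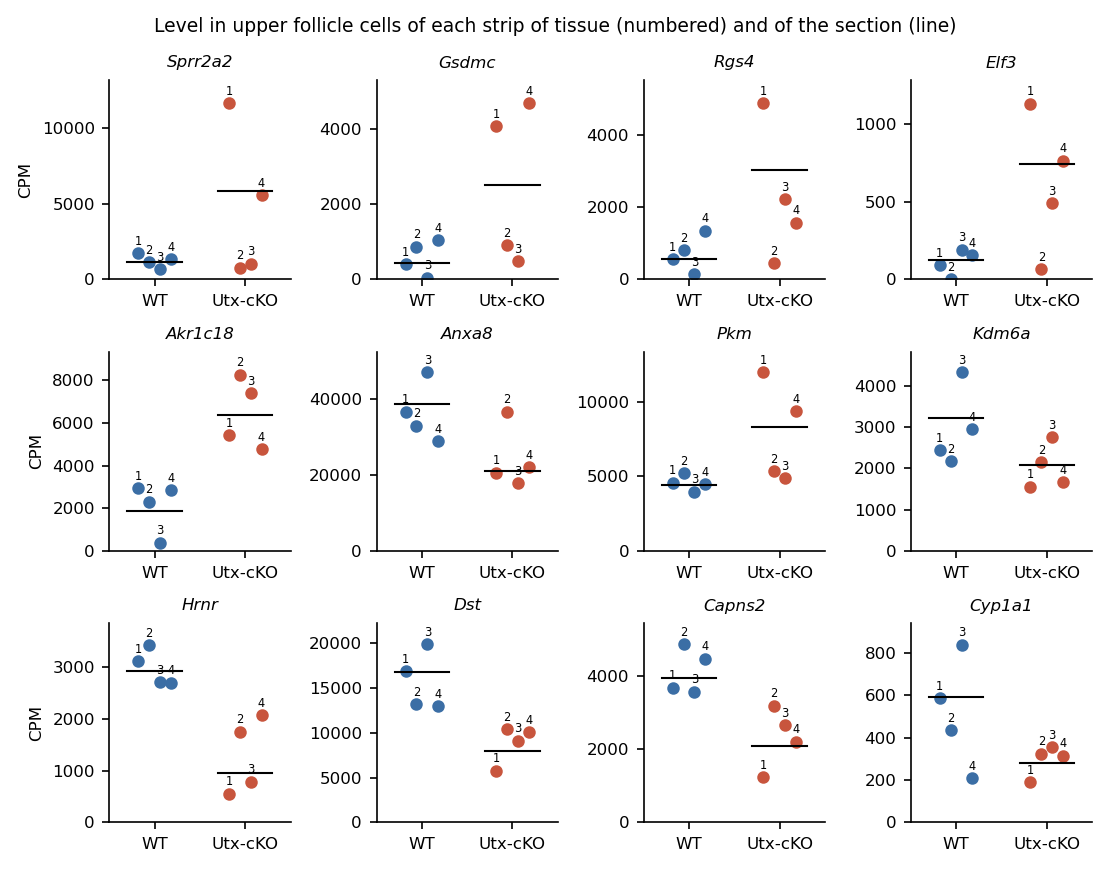
CPM of 12 genes in upper follicle cells, with 1 numbered point per strip and a line at the value of the section. Akr1c18, Hrnr, Dst and Capns2 separate the 2 sets of strips, whereas Sprr2a2 and Gsdmc are high in Utx-cKO strips 1 and 4 only.

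Akr1c18, a hydroxysteroid dehydrogenase that inactivates progesterone, was higher in every Utx-cKO strip. It measured 2935, 2305, 384 and 2856 CPM in WT and 5426, 8262, 7404 and 4773 CPM in Utx-cKO, without overlap. The section levels were 1856 and 6350 CPM, a log2 ratio of 1.77 (1.56 to 2.00), against 2.12 in other keratinocytes. The measured level grew with distance from the surface in both genotypes, being 855 CPM within 25 µm of a granular cell and 4223 CPM beyond 50 µm in WT and 4480 to 8157 CPM in the Utx-cKO section. Distance and strip were mixed in WT, where the low strip 3 held 244 of 658 near members and 43 of 312 in the deepest class. The ratio shrank along the same path, with log2 2.39 (1.94 to 2.86) near the surface and 0.95 (0.66 to 1.25) in the deepest class. Without 1 strip these were 1.79 to 3.06 and 0.65 to 1.65. Sebocytes, which lie close to the deepest members, had 9064 and 23889 CPM, and their part in these values was not tested. In WT, 11.4% of members and 13.4% of fibroblasts held an Akr1c18 transcript, while in Utx-cKO the shares were 26.7% and 11.7%. The WT level and its change with distance are thus not read as expression. The change of the ratio with distance has the same limit, since it divides by that level.

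Genes of the list of retinoid genes, Akr1c18 and Cyp1a1 differed in both directions. Aldh1a3, which makes retinoic acid, had 1.21 (0.69 to 1.75), though fewer members than fibroblasts held it, 2.88% against 7.04% in WT. Cyp1a1, an oxidase induced through the aryl hydrocarbon receptor, was lower in Utx-cKO members, from 594 to 281 CPM, a log2 ratio of -1.08 (-1.65 to -0.52), while it was higher in other keratinocytes at 1.15. Without 1 strip the member ratio was -1.33 to -0.66. Counts were few, with 23 in WT and 12 in Utx-cKO within 25 µm of a granular cell. Without WT strip 3 that class was at 0.38 and the class at 25 to 50 µm at 0.67, while the farthest class was at -1.66. Ahr itself was at 4754 and 4726 CPM. Of 6 genes of this list, 3 were called higher and 1 lower, with a median of 0.57. The shares over all genes were 14.2% higher and 8.96% lower, with a median of 0.01.

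Of 7 genes of barrier immunity compared, 5 were called higher and none lower, beside 14.2% called higher and 8.96% lower over all genes. Their median log2 ratio was 0.80, beside 0.01 over all genes. Cd1d1, Cd274, Il1r2 and Tslp of this list had too few counts to compare. Besides Gsdmc these included Ccl20, a chemokine that draws cells with the receptor CCR6, at 0.82 (0.42 to 1.22), Aim2, a sensor of cytosolic DNA, at 0.80 (0.29 to 1.32), and Pglyrp3, a peptidoglycan-binding protein, at 0.73 (0.38 to 1.09). Pglyrp3 and Ccl20 were also higher in members than in other keratinocytes, with log2 ratios of 1.79 and 1.58 in WT. Aim2 was seen in 3.43% of WT members and 5.28% of WT fibroblasts, so it is not read as expression of the follicle. Pglyrp3 was at 0.58 without WT strip 3. Ccl20 was at 0.23 without Utx-cKO strip 3.

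Enzymes of glycolysis were higher in Utx-cKO members, while the same genes were lower or near even in other Utx-cKO keratinocytes. Pkm, pyruvate kinase, measured 4572, 5234, 3980 and 4466 CPM in the WT strips and 11983, 5335, 4880 and 9365 CPM in the Utx-cKO strips. Strips 1 and 4 lay far above all of WT, strip 2 just above it and strip 3 inside its range. The log2 ratio was 0.91 (0.76 to 1.07) in members and -0.33 in other keratinocytes. Ldha, lactate dehydrogenase, had 0.64 (0.44 to 0.85) against -0.83, Tpi1, triose phosphate isomerase, 0.62 (0.44 to 0.80) against -0.63, and Ndufa4l2, a mitochondrial subunit induced in low oxygen, 0.87 (0.43 to 1.33) against 0.09. Without Utx-cKO strip 1, Pkm was at 0.42, Ldha at 0.30 and Tpi1 at 0.35, all short of 1.5-fold, and Ndufa4l2 was present in fewer WT members, 4.21%, than WT fibroblasts, 16.7%. Of 5 genes of the list 4 were called higher and none lower, with a median of 0.64. Over all genes 14.2% were called higher and 8.96% lower, with a median of 0.01. Whether the ratios differ between members and other keratinocytes was not tested.

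Genes of the cornified layer split. While the Sprr2a copies were higher, Hrnr, a large filaggrin-related protein of the granular layer, was lower in each Utx-cKO strip. It measured 3120, 3427, 2709 and 2701 CPM in WT and 559, 1757, 785 and 2071 CPM in Utx-cKO. The section levels were 2935 and 950 CPM, a log2 ratio of -1.63 (-1.91 to -1.35), with -0.35 in other keratinocytes. Near the surface, where WT members had 4292 CPM and Utx-cKO members 1325 CPM, the log2 ratio was -1.70 (-2.09 to -1.32), so the ratio was as large among members close to it. It was -0.39 (-1.14 to 0.37) at 25 to 50 µm and -1.27 (-1.87 to -0.66) beyond. Lor, loricrin, had -0.85 (-1.09 to -0.62), which was -0.44 without Utx-cKO strip 1, and Sprr1a and Ivl, involucrin, had 0.13 and 0.07. Of 10 compared, 3 were called higher and 2 lower, beside 14.2% and 8.96% over all genes, with a median of 0.10. The 3 are the Sprr2a copies and so count as 1 group.

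Among genes that make the lipid barrier, Aloxe3, Cers3 and Them5 were lower. Aloxe3, a lipoxygenase that acts on ceramide lipids, had a log2 ratio of -0.99 (-1.34 to -0.64), Cers3, a ceramide synthase, -1.06 (-1.47 to -0.64), and Them5, a thioesterase, -0.88 (-1.28 to -0.48). Without WT strip 3, Cers3 was at -0.28 and Aloxe3 at -0.51, and the Cers3 level of that strip, 1774 CPM, was the highest of all. Of 8 genes compared 3 were lower and none higher, beside 8.96% and 14.2% over all genes. Their median was -0.53, and 0.01 in other keratinocytes. Them5 had -1.14 (-1.67 to -0.62) within 25 µm of a granular cell and 0.05 (-1.03 to 1.18) at 25 to 50 µm, and beyond 50 µm its direction turned, to 1.61 (0.13 to 3.57) from 4 WT and 34 Utx-cKO counts. Within 25 µm of a granular cell, Cers3 had -1.04 (-1.63 to -0.47) and Aloxe3 -0.74 (-1.21 to -0.27). Without 1 strip these were -1.47 to -0.34 and -0.88 to -0.23. The smaller share of Utx-cKO members near the surface moves with these genes, and its part in their section ratios was not tested.

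Among basal layer genes, Dst and Krt15 were lower. Dst, whose product links hemidesmosomes to keratin filaments, measured 16866, 13146, 19876 and 12932 CPM in WT and 5778, 10409, 9097 and 10041 CPM in Utx-cKO, with no overlap of strips. Its log2 ratio was -1.07 (-1.17 to -0.96) against -0.38 in other keratinocytes. Krt15, a keratin of basal and bulge cells, went from 46844 to 31169 CPM, a log2 ratio of -0.59 (-0.64 to -0.53), and had -0.57, -0.81 and -0.67 in the distance classes from the surface inward. It was at -0.41 without Utx-cKO strip 1, and at -0.52 with totals that leave out the genes of the rule, both short of 1.5-fold. Of 8 basal genes compared these 2 were called lower and none higher, beside 8.96% and 14.2% over all genes. Their median was -0.46, and Krt5 was at -0.14. Capns2, a calpain subunit of skin, at -0.92 (-1.13 to -0.72), had all Utx-cKO strips below those of WT, and -0.58 without Utx-cKO strip 1. The annexin Anxa8 was at -0.87 (-0.94 to -0.81) and Tgfbi, an extracellular matrix protein, at -0.85 (-1.01 to -0.69), though 75.9% of WT fibroblasts and 33.4% of WT members held Tgfbi. Spinous genes had a median of -0.37 over 10 genes, with Krt1 and Calm5 called higher and none lower, at 0.24 and 0.44 without Utx-cKO strip 4. Krt1 was 0.77 (0.44 to 1.11) over the sections and 1.25 (0.90 to 1.61) within 25 µm of a granular cell.

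**Figure D4:**
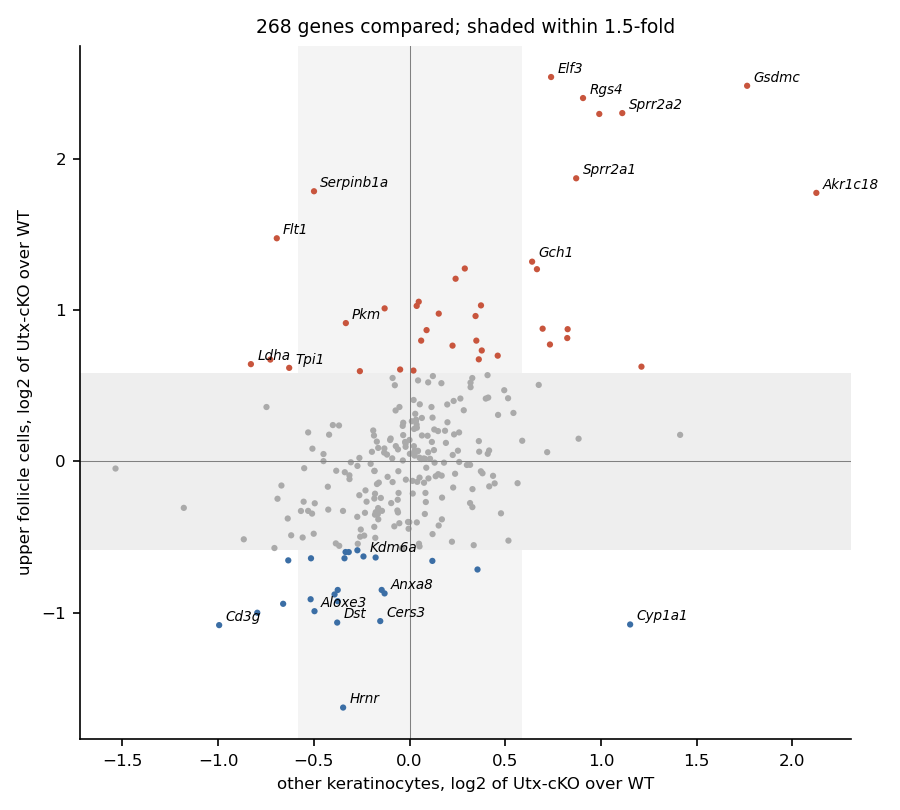
Log2 ratio of Utx-cKO over WT for 268 genes in upper follicle cells (vertical) against other keratinocytes (horizontal), coloured where upper follicle cells passed 1.5-fold, with that range shaded on both axes. Akr1c18 and Gsdmc are high on both axes, Cyp1a1 is low in upper follicle cells and high in other keratinocytes, and Pkm, Ldha and Tpi1 are higher in upper follicle cells and below 0 in other keratinocytes.

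The other lists held few calls, beside 14.2% called higher and 8.96% lower over all genes. Of 8 transcription factor genes Elf3 alone was called, with a median of 0.03; of 8 genes of lipid synthesis Dbi alone, at 0.67 (0.47 to 0.88) and -0.07 without Utx-cKO strip 1; of 3 duct genes Pglyrp3 alone. None of 4 junction genes or 4 cell cycle genes was called, with medians of -0.22 and 0.38. Krt16 was the single call among 3 stress genes, at 0.63 (0.01 to 1.27) and -0.58 without Utx-cKO strip 1. Of 6 serpin and protease genes Serpinb1a was called higher, at 1.79 (1.15 to 2.48), and Htra1 and Mmp2 lower, at -0.40 and -0.23 without Utx-cKO strip 1 and both at -0.54 with totals without the genes of the rule, with a median of -0.42. No Wnt or Hedgehog gene had enough counts. Among the remaining genes with the largest ratios, Gch1, which starts synthesis of a cofactor of nitric oxide synthase, was at 1.32 (0.71 to 1.97) with no overlap of strips. Gch1, Serpinb1a, Flt1 at 1.47 (0.92 to 2.07; 0.63 without Utx-cKO strip 1) and Slc8a1 at 1.27 (0.58 to 2.02) were present in fewer WT members than WT fibroblasts, so they are not read as expression of the follicle.

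Transcripts of other cell types moved with genotype as well. The 6 T or NK cell markers summed to 4662 CPM in WT members (strips 4388 to 5234) and 3295 CPM in Utx-cKO (strips 2407 to 3852), a log2 ratio of -0.50 (-0.68 to -0.32). The T cell receptor genes Cd3g and Cd3e were themselves among the lower genes, at -1.08 (-1.56 to -0.61) and -1.001 (-1.37 to -0.64), and for both every Utx-cKO strip lay below every WT strip. In place, 35.8% (33.1 to 38.5) of members in WT and 18.1% (16.6 to 19.6) in Utx-cKO had a cell with at least 3 T or NK transcripts within 20 µm, against 33.1% and 21.2% of other keratinocytes. By strip the member shares were 36.5%, 27.2%, 51.7% and 22.3% in WT and 19.9%, 9.51%, 24.8% and 6.44% in Utx-cKO, which overlapped. The 4 fibroblast markers summed to 2624 and 1771 CPM, with Mfap4 turning from -0.94 to 1.10 without WT strip 3, and the 3 endothelial markers, Flt1 among them, to 503 and 1132 CPM. No marker on these lists stood at 0 in either section, and their part in the gene ratios above was not tested.

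**Figure D5:**
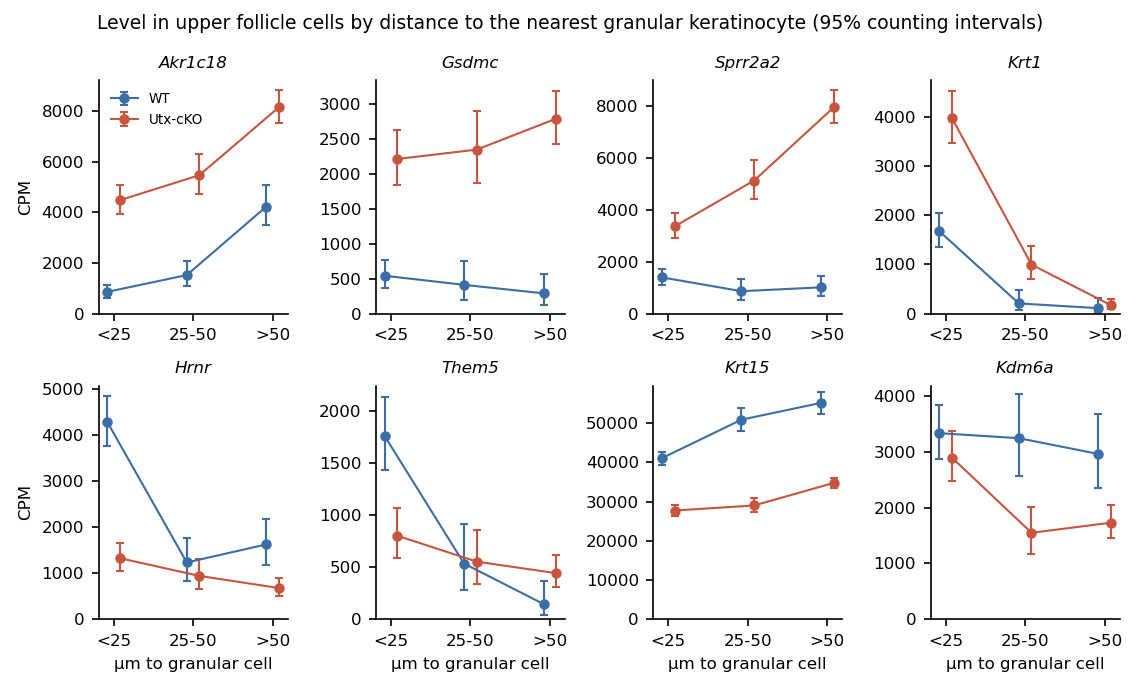
CPM of 8 genes in upper follicle cells within 25 µm, at 25 to 50 µm and over 50 µm from the nearest granular keratinocyte, WT in blue and Utx-cKO in red, with 95% counting intervals. The measured Akr1c18 level grows with distance in both genotypes, though in WT it is not read as expression. Hrnr and Them5 are highest near the surface in WT. The Kdm6a intervals of WT and Utx-cKO overlap near the surface, where the ratio moves with 1 strip.

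The higher genes did not follow distance in 1 way. Sprr2a2 had log2 ratios of 1.27 (0.89 to 1.66), 2.58 (1.92 to 3.30) and 2.98 (2.43 to 3.58) from the surface inward, and Gsdmc 2.03 (1.46 to 2.65), 2.52 (1.57 to 3.63) and 3.27 (2.27 to 4.50). Without Utx-cKO strip 1 they were 0.63, 1.15 and 0.74 for Sprr2a2 and 1.71, 1.39 and 2.15 for Gsdmc, so the order over the classes rests on that strip. Rgs4 had 2.72, 1.83 and 2.06, with no order by distance. The Akr1c18 ratio was smallest in the deepest class, but it divides by a WT level that is not read as expression.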

How the data were processed

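Xenium data of 1 WT and 1 Utx-cKO section were used. Per the labels' protocols, 5 µm sections of fixed skin were probed with a custom panel of 480 genes and negative control probes. The authors deposited transcript tables with a quality score for each decoded transcript, and cell tables with counts, positions and areas; in each of the 40371 and 52308 cells the deposited count equalled that of its transcripts scored 20 or more. Which software decoded and segmented them was not given in the sources used here. Sections held 3540184 and 2875112 such transcripts, of which 74.7% and 84.9% lay in cells.

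Transcripts scored 20 or more were counted per cell and gene with Python 3.11.15, numpy 2.4.6, scipy 1.17.1 and pandas 2.3.3. Counts of member cells were summed and scaled to CPM of the panel. Ratios carry exact conditional binomial intervals, shares Clopper-Pearson intervals, both at 95% and for counting error only. Strips are connected tissue of at least 1000 cells. Sebocytes and granular keratinocytes have at least 5 transcripts of their marker genes and are no members; fibroblasts have at least 4. No doublet caller was run. The genes named are, between genotypes, those with the 12 largest ratios in each direction among calls with at least 100 counts whose direction held without each strip, the 15 genes highest over other keratinocytes, Kdm6a, the genes of the rule and the largest ratios of each list. Members, gene lists and markers were chosen with earlier results of these data known. On counts simulated for the comparison of Utx-cKO with WT, true 3-fold changes passed 1.5-fold in 100% of 89 genes, 2-fold changes in 82.6% of 92, and unchanged genes in 4.55% of 66. The simulated counts varied by counting error alone. These shares hence leave out differences between strips, animals or positions and give no rate of false calls between genotypes. Promoter sequences are RefSeq's, GRCm38.p6. Alternatives were other quality, depth and marker thresholds, nuclear transcripts, scalings, thinning and each strip left out. Some genes that met the naming rule are not reported here.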

Additional observations from a re-analysis of the deposited data

How the results depend on the processing

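The 25 genes that met the naming rule between genotypes kept their direction in each alternative run, as did the 15 over other keratinocytes, and 8 of 15 list medians. For the 25 genes, Kdm6a aside, the runs without a strip could not fail, since the genes were chosen for keeping direction in them. The 15 were chosen as the highest by the smaller ratio of the sections. A scaling by mean counts per cell moved the median of all genes to -0.33, since Utx-cKO members held fewer transcripts. The log2 share ratio, 0.81 of all cells and 0.79 of keratinocytes, was 0.96 and 0.94 with fewer than 2 sebocyte and granular transcripts, 1.13 and 0.99 with the rule on cells thinned to 40 (chosen after seeing the data, as was equal weight for strips), and 0.42 to 0.96 and 0.48 to 0.90 without a strip. The 38 genes higher and 24 lower became 77 higher with a minimum of 50 counts, 19 and 82 by mean counts per cell, 14 and 15 with cells thinned to 20 transcripts (fewer genes tested), and 26 to 45 and 17 to 43 without a strip. With totals without the genes of the rule, 17 of the 24 lower genes were called again. With equal weight for strips, 28 of the higher and 15 of the lower genes were called again. The 31 genes higher and 29 lower than in other keratinocytes were 19 higher by mean counts per cell, 15 and 8 with thinned cells, 23 to 32 and 15 to 28 without a strip, and the lower count was 18 at a quality of 30, 11 with fewer than 2 sebocyte and granular transcripts, 13 over the nucleus, 45 with at least 50 counts and 17 with totals without the 10 most abundant genes. With cells of at least 40 transcripts, the median distance to a sebocyte was 38.0 µm in WT and 31.9 µm in Utx-cKO, that to a granular cell 50.2 µm in Utx-cKO, and 94.2% of Utx-cKO members had another within 20 µm; with at least 3 Krt79 transcripts that share was 93.2% in WT and 94.5% in Utx-cKO. Without a strip the distances were 35.9 to 53.6 and 29.9 to 43.2 µm to a sebocyte and 21.6 to 28.6 and 29.1 to 59.8 µm to a granular cell, in WT and Utx-cKO, and the share 96.0% to 96.8% and 95.4% to 97.2%. No paired analysis was possible because each group has 1 section.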

Other observations

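Some genes of antigen display by class I molecules were at least 1.5 times higher in upper follicle cells than in other keratinocytes in both sections. They were picked after their values were seen, with no list fixed for them. H2-K1, a class I heavy chain, measured 34785 CPM in WT members against 20203 CPM in other keratinocytes and 35818 against 23619 CPM in Utx-cKO, log2 ratios of 0.78 (0.73 to 0.83) and 0.60 (0.56 to 0.64). Nlrc5, the transactivator of class I genes, had 0.64 (0.54 to 0.74) and 0.67 (0.58 to 0.75), and Tap2, a subunit of the peptide transporter, 0.88 (0.71 to 1.04) and 0.78 (0.66 to 0.90). Other genes of the pathway on the panel fell short of 1.5-fold in at least 1 section. Tap1 had 0.62 and 0.56, Psmb8, a subunit of the immunoproteasome, 0.62 and 0.49, Tapbp, which loads peptides, 0.54 and 0.49, and the heavy chain H2-D1 0.44 and 0.37. Between genotypes the members' log2 ratios were 0.04 for H2-K1, 0.07 for Nlrc5 and 0.42 for Tap2.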
